A study of Homo sapiens with 6 samples.

Results

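The expression of 10 inflammatory cytokine and chemokine genes was followed through orthotopic breast tumors: the chemokines CXCL1, CXCL2, CXCL3, CXCL8 and CCL20, the IL-6 family cytokines IL6, IL11 and LIF, and the interleukin-1 cytokines IL1A and IL1B. They were taken by name, as secreted inflammatory mediators, from 60671 annotated genes, and all 10 were among the 13861 genes that were tested, which are those with 1 TPM or more (a measure of RNA level corrected for gene length) in at least 3 of the 6 samples. The tumors grew from wild-type MDA-MB-231 cells, an epithelial line of human breast cancer without hormone receptors or amplified HER2, after orthotopic injection; bulk RNA was sequenced from the tumor core (TC, n = 3) and the tumor margin (TM, n = 3) to ask how the interior and the edge of a tumor differ. The hosts were female NSG mice, bought at 6 to 8 weeks of age, and the cells were placed with Matrigel in the mammary fat pad. Both groups share the cell line, genotype and treatment label and the host strain, and their labels differ in the region sampled. There were 3 mice a group, and whether a core and a margin came from the same tumor is not given in the sources used here. A single cell line is a single genetic background, and NSG mice lack T, B and NK cells but keep myeloid cells, stroma and vessels. Reads were assigned to the human genome, and whether a separate step removed mouse reads is not given in the sources used here.

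CXCL1, CXCL2, CXCL3 and CXCL8 are chemokines with a Glu-Leu-Arg motif that draw neutrophils through the receptors CXCR1 and CXCR2, and CCL20 draws cells that carry CCR6. IL-6, IL-11 and LIF each bind a receptor of their own and signal through the shared subunit gp130 (IL6ST) to JAK kinases and STAT3. IL-1 alpha and IL-1 beta signal through IL1R1 and IL1RAP to NF-kappaB, the transcription factor that switches on many of these genes, and many of their mRNAs carry AU-rich elements that make them short-lived. Triple-negative lines such as MDA-MB-231 are known to make IL-6 and IL-8 themselves.

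The promoters of the chemokines and IL6 are shown, which are the members whose promoter windows held the kappaB core described below. Those of CXCL1, CXCL2 and CXCL3 are close copies of each other. Whether this likeness bears on their levels was not tested. Each line gives the 100 bases before the transcription start in RefSeq (GRCh38.p14), written 5′ to 3′ on the gene's strand, with matches to the kappaB core GGNNNTTCC on either strand in capitals. The RefSeq starts of CXCL2, CXCL3, CXCL8, CCL20 and IL6 lie inside the spans given to those genes by GENCODE release 29, and that of CXCL1 lies at the edge. For CCL20 the span begins at 227805739, well before the window printed here.
CXCL1 (chr4:73869293-73869392, plus strand): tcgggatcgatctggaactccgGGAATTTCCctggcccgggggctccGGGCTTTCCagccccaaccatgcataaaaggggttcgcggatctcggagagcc
CXCL2 (chr4:74099196-74099295, minus strand): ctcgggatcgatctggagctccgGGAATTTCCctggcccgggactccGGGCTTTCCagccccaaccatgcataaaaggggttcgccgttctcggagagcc
CXCL3 (chr4:74038690-74038789, minus strand): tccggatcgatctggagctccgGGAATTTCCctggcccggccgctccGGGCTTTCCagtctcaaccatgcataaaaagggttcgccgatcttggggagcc
CXCL8 (chr4:73740469-73740568, plus strand): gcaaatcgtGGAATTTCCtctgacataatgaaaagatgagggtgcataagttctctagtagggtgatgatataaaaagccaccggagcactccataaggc
CCL20 (chr2:227813742-227813841, plus strand): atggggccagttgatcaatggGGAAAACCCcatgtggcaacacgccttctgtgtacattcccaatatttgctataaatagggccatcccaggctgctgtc
IL6 (chr7:22727100-22727199, plus strand): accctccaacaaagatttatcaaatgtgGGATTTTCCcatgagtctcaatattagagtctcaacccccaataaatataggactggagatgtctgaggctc

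CXCL1 and CXCL3 each held 2 kappaB cores, beginning 78 and 53 bases before the start, and those of CXCL2 began at 77 and 53. CXCL8 held 1 core at 91 bases, CCL20 1 at 79 and IL6 1 at 72. Within 250 bases before the start, the core was present in these 6 of the 9 members with an entry, counted by gene. It was present in 17.1% of 35116 promoters, counted by entry. The promoters of CXCL1, CXCL2 and CXCL3 are close copies, so their matches are not separate occurrences. The core was not in the windows of IL11, IL1A or IL1B, and LIF had no entry. The AP-1 motif TGANTCA, searched on both strands, was in the windows of CXCL8, IL11 and IL1A and in 6.57% of all promoters. The C/EBP motif TTGCNNAA, also searched on both strands, was in those of CXCL2, IL6 and IL1B and in 9.05% of all promoters. The letters TATAAA on the gene's own strand were in those of CXCL8, CCL20 and 1 of the 2 entries of IL1A and in 6.80% of all promoters. A match describes the letters only. Over the last 50 bases before the start, CXCL1 had the same base as CXCL2 at 48 positions and as CXCL3 at 44, against 21 for CXCL8.

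No member passed the test between core and margin, and for 8 of the 10 the spread between replicates was among the widest of all genes. The test was limma on log2(TPM + 1), with a log2 difference given as TC minus TM and a call at an adjusted p under 0.05. It called 0 of the 10 members and 19 of 13861 genes (0.137%). At an unadjusted p under 0.05 it held 1 member, LIF, against 16.2% of all genes. LIF was also the only member whose 3 core values and 3 margin values did not overlap, which 22.2% of all genes showed, and 18.9% showed with the core lower as in LIF. The log2 differences were positive for 7 members and negative for 3, with a median of 0.53 against -0.14 over all tested genes. After median-of-ratios scaling or quantile normalization, which bring the median of all genes to 0.02 and 0.01, 9 members were positive, with medians of 0.61 and 0.67. The files hold TPM without read counts, so the depth behind each value is unknown.

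**Figure D1:**
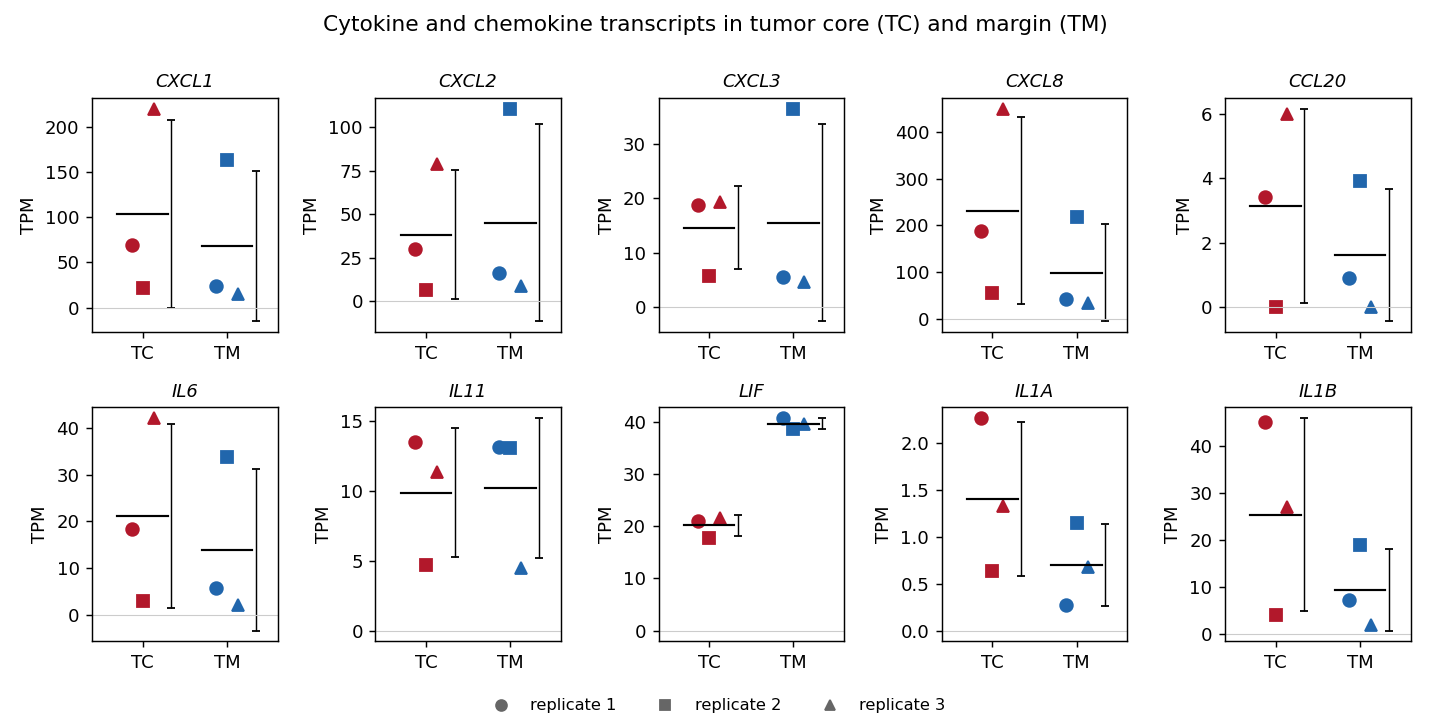
TPM of the 10 cytokine and chemokine genes in each TC and TM sample, one panel a gene with its own linear axis; points are samples, and the line and bar are the mean and SD of 3. Core and margin points overlap in every panel except that of LIF, whose TC samples lie at 17.8 to 21.6 TPM and whose TM samples lie at 38.6 to 40.7 TPM.

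CXCL8 (ENSG00000169429, chromosome 4, 73740506 to 73743716, plus strand), which encodes interleukin-8, had the highest mean level of the members. The TC samples 1, 2 and 3 held 188 TPM, 55.5 TPM and 450.0 TPM, and the TM samples 1, 2 and 3 held 42.5 TPM, 219 TPM and 34.5 TPM. TC replicate 3 was the highest sample, TM replicate 2 came next, and TC replicate 2 lay among the margin values. The means were 231 ± 201 TPM in TC and 98.7 ± 104 TPM in TM (SD, n = 3 each). The log2 difference of 1.28 (SE 0.84, 95% interval -0.66 to 3.21) had an adjusted p of 0.527 by limma. It was 2.10 without TM replicate 2 and 0.57 without TC replicate 3.

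CXCL1 (ENSG00000163739, chromosome 4, 73869393 to 73871242, plus strand), first known as a melanoma growth-stimulating activity, followed the same order at the top. Its values were 69.3 TPM, 21.6 TPM and 220.2 TPM for the TC samples in numerical order, then 24.3 TPM, 164 TPM and 15.5 TPM for the TM samples, an order used for every gene below. The highest sample held 14.2 times the level of the lowest, and the groups overlapped throughout. The log2 difference was 0.79 (SE 0.98, 95% interval -1.45 to 3.03), with an adjusted p of 0.760 by limma, and it came to -0.04 without TC replicate 3. Of the 50-base stretches of its transcripts, 5.73% also occurred in another gene's transcripts, so reads can be split among these close copies.

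CXCL2 (ENSG00000081041, chromosome 4, 74097035 to 74099293, minus strand) stood at 29.9 TPM, 6.26 TPM and 78.8 TPM in TC and at 16.1 TPM, 111 TPM and 9.01 TPM in TM. TM replicate 2 was here the highest sample and TC replicate 2 the lowest. The log2 difference was -0.03 (SE 1.02, 95% interval -2.38 to 2.31), with an adjusted p of 0.992 by limma, and it was 0.14 after median-of-ratios scaling and 0.12 after quantile normalization. The interval takes in more than a 4-fold difference either way, so these samples do not show equal levels. CXCL2 shared 9.24% of its 50-base stretches with other genes.

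CXCL3 (ENSG00000163734, chromosome 4, 74036589 to 74038807, minus strand) was at 18.7 TPM, 5.80 TPM and 19.3 TPM in TC and at 5.56 TPM, 36.4 TPM and 4.53 TPM in TM. TM replicate 2 was again the highest, and the other two margin samples were the lowest of the 6. The log2 difference was 0.34 (SE 0.73, 95% interval -1.34 to 2.01), with an adjusted p of 0.873 by limma and 5.26% of its 50-base stretches shared. CCL20 (ENSG00000115009, chromosome 2), the ligand of CCR6, was the faintest chemokine, at 3.42 TPM, 0 and 6.02 TPM in TC and at 0.91 TPM, 3.92 TPM and 0 in TM. It was listed at 0 in 1 sample of each region, and its log2 difference was 0.57 (SE 0.78, 95% interval -1.22 to 2.37, adjusted p 0.784 by limma).

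The 4 CXC members lie in 358.8 kb of chromosome 4, from 73740506 to 74099293. That stretch also holds 5 other protein-coding genes, CXCL5, CXCL6, PF4, PF4V1 and PPBP, and none of them exceeded 0.14 TPM in any sample. Ratios of these members do not depend on the scaling of a sample, and 3 of the 6 CXC pairs did not overlap between the regions. CXCL8 was 6.30, 8.87 and 5.71 times CXCL2 in the 3 TC samples and 2.64, 1.98 and 3.83 times CXCL2 in the 3 TM samples. CXCL1 was 2.32, 3.45 and 2.80 times CXCL2 in TC and 1.51, 1.48 and 1.72 times CXCL2 in TM. CXCL8 was 9.58 to 23.3 times CXCL3 in TC and 6.01 to 7.65 times CXCL3 in TM. In these 3 pairs CXCL2 or CXCL3 was the lower partner by a wider ratio in TC. The ratios of CXCL8 to CXCL1, of CXCL1 to CXCL3 and of CXCL2 to CXCL3 overlapped, the first at 2.04 to 2.72 in TC and 1.34 to 2.23 in TM. Over all 36 pairs of members (CCL20 left out for its zeros) 5 did not overlap, the 3 above with CXCL2 to IL6 and LIF to IL1A. The pairs were looked at after the values were seen, with no test. The pairs share members, so they are not independent of each other. The share of all gene pairs without overlap was not computed. The 22.2% of single genes without overlap is a share of levels, not of ratios, and does not stand in for it.

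IL6 (ENSG00000136244, chromosome 7, 22725884 to 22732002, plus strand) varied over a wider fold range than any CXC member, from 2.19 TPM to 42.1 TPM. The TC samples held 18.5 TPM, 3.08 TPM and 42.1 TPM, and the TM samples 5.87 TPM, 33.9 TPM and 2.19 TPM. TC replicate 3 and TM replicate 2 were again the top pair, and TC replicate 2 and TM replicate 3 the bottom pair. The log2 difference was 0.72 (SE 1.01, 95% interval -1.59 to 3.03), with an adjusted p of 0.788 by limma, and it was -0.04 without TC replicate 3 and -0.04 without TM replicate 3. The ratio of IL6 to CXCL1 stayed between 0.142 and 0.267 in the 6 samples while IL6 itself varied 19.2-fold. The ratio of CXCL2 to IL6 did not overlap between the regions, with a mean log2 ratio of 0.87 in TC and 1.74 in TM. Both ratios were looked at after the values were seen, with no test. The antisense gene IL6-AS1 and STEAP1B overlap IL6 on the other strand by 1737 and 1730 bases, and reached at most 1.00 TPM and 1.25 TPM.

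IL11 (ENSG00000095752, chromosome 19), a gp130 cytokine known for its induction by TGF-beta in breast cancer cells, kept another order. It was at 13.5 TPM, 4.67 TPM and 11.3 TPM in TC and at 13.1 TPM, 13.1 TPM and 4.45 TPM in TM. TC replicate 2 and TM replicate 3 were low, and the other four samples lay close together. The log2 difference was -0.03 (SE 0.47, 95% interval -1.10 to 1.04), with an adjusted p of 0.986 by limma, and it was 0.13 after median-of-ratios scaling and 0.16 after quantile normalization.

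LIF (ENSG00000128342, chromosome 22, 30240447 to 30246851, minus strand), the leukemia inhibitory factor, was the member in which the regions parted. The TC samples held 21.0 TPM, 17.8 TPM and 21.6 TPM, and the TM samples 40.7 TPM, 38.6 TPM and 39.6 TPM. Every core value lay below every margin value, and the mean in TM, 39.6 ± 1.02 TPM, was 1.97 times that in TC, 20.1 ± 2.04 TPM (SD, n = 3 each). The log2 difference of -0.95 (SE 0.15, 95% interval -1.28 to -0.61) had an unadjusted p of 0.00016, the 30th smallest of all tested genes, and an adjusted p of 0.0658 by limma, which missed the threshold. Over the alternatives the adjusted p ran from 0.0494, with robust moderation, to 0.288, without TC replicate 2, and the difference from -1.001 to -0.77. After median-of-ratios scaling the LIF difference was -0.77, with an adjusted p of 0.142 by limma. The antisense gene LIF-AS2, whose span shares 647 bases with LIF, was at 0.21 TPM, 0 and 0 in TC and at 2.22 TPM, 1.76 TPM and 3.39 TPM in TM (adjusted p 0.0658 by limma). Whether the counting used strand is not clear from the sources used here, so reads of the shared bases may not be told apart. Of 10 neighbors and antisense genes of the members listed, 2 were tested and 0 called, LIF-AS2 and CKAP2L (log2 difference 0.14), with LIF-AS2 at an unadjusted p under 0.05.

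**Figure D2:**
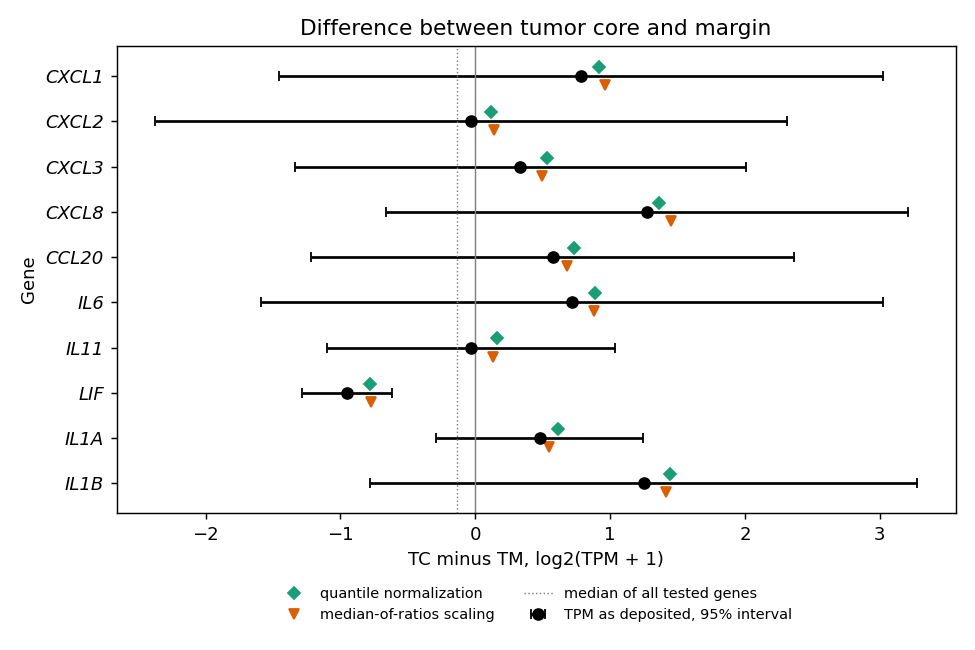
Log2 difference of each member, TC minus TM on log2(TPM + 1), with its 95% interval from limma, and the median difference of all tested genes as a line. All intervals cross 0 except that of LIF, -1.28 to -0.61.

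IL1B (ENSG00000125538, chromosome 2, 112829751 to 112836903, minus strand), which is made as a precursor and cut by caspase-1, had the widest range of the members that were above 0 in every sample. It was at 45.0 TPM, 4.05 TPM and 27.0 TPM in TC and at 7.17 TPM, 18.9 TPM and 1.97 TPM in TM. TC replicate 1 led here, ahead of TC replicate 3 and TM replicate 2, and the highest sample held 22.8 times the lowest. The log2 difference was 1.25 (SE 0.89, 95% interval -0.78 to 3.28), with an adjusted p of 0.558 by limma. It was 0.60 without TC replicate 1, 0.55 without TM replicate 3, 1.92 without TM replicate 2 and 2.19 without TC replicate 2. Its neighbor IL1A (ENSG00000115008, chromosome 2, 112773915 to 112784590, minus strand), which is active without that cut, was low, at 2.26 TPM, 0.63 TPM and 1.32 TPM in TC and at 0.27 TPM, 1.14 TPM and 0.68 TPM in TM. Its log2 difference was 0.48 (SE 0.33, 95% interval -0.29 to 1.24, adjusted p 0.552 by limma), the groups overlapped, and it ran from 0.23 without TC replicate 1 to 0.73 without TC replicate 2.

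By mean TPM over the 6 samples, a level per length, the members fell in the order CXCL8 (165 TPM), CXCL1 (85.8 TPM), CXCL2 (41.8 TPM), LIF (29.9 TPM), IL6 (17.6 TPM), IL1B (17.4 TPM), CXCL3 (15.1 TPM), IL11 (10.0 TPM), CCL20 (2.38 TPM) and IL1A (1.05 TPM). CXCL8 was above CXCL1, and CXCL1 above CXCL2, in 6 of 6 samples. IL11 was likewise above CCL20 in 6 of 6. The order of the other neighbors was not kept in every sample: CXCL2 exceeded LIF in 3 of 6 samples, LIF exceeded IL6 in 5, IL6 exceeded IL1B in 3, IL1B exceeded CXCL3 in 3, CXCL3 exceeded IL11 in 5 and CCL20 exceeded IL1A in 4. The levels of these neighbors were not compared by a test. LIF was from 0.512 to 18.1 times IL6, depending on the sample.

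What most members shared was an order of samples that did not follow the regions. TC replicate 3 and TM replicate 2 were the 2 highest samples for 6 members, CXCL1, CXCL2, CXCL3, CXCL8, CCL20 and IL6. Together with TC replicate 1 they were the 3 highest for 8 members, the same 6 with IL1A and IL1B. TC replicate 2 was among the 2 lowest for 8 members, and so was TM replicate 3, which alone was the lowest for 6 and was at 0 together with TC replicate 2 for CCL20. CXCL3 and CXCL8 were the members for which TC replicate 2 was not among the 2 lowest, TM replicate 1 being lower there. IL11 and LIF did not share the 3 highest samples, although TC replicate 2 and TM replicate 3 were the 2 lowest for IL11 and TC replicate 2 was the lowest for LIF. The members were not measured independently of each other, since they share the 6 libraries. How many of all tested genes had the same order was not computed, so it is not shown to be particular to the members. Over 13861 tested genes, the deviations of TC replicate 3 and TM replicate 2 from their group means had a correlation of 0.32. That was the highest of any core and margin pair.

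**Figure D3:**
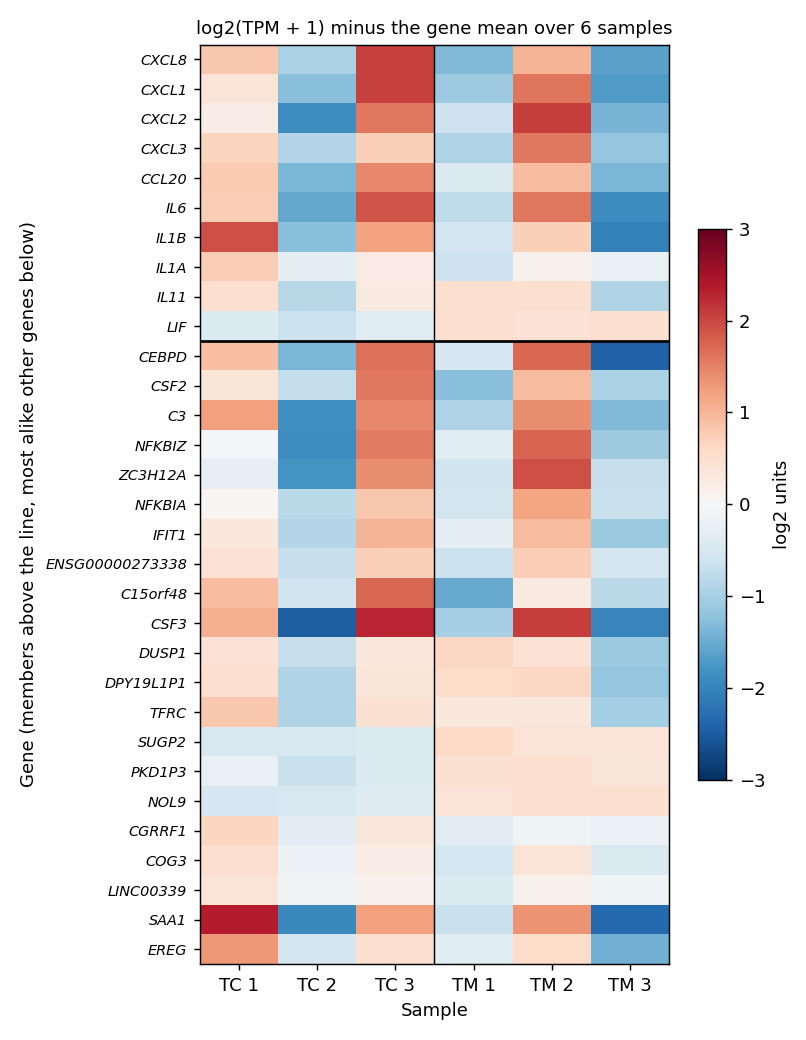
Log2(TPM + 1) minus the gene's mean over the 6 samples, in log2 units from blue (low) to red (high), for the 10 members above the line and the other genes most like them below it. TC 3 and TM 2 are red and TC 2 and TM 3 blue for most chemokines and IL6, while LIF splits by region.

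The spread behind this order was wide. The SD within a group on the log2 scale was 1.71 for CXCL1, 1.78 for CXCL2, 1.25 for CXCL3, 1.47 for CXCL8, 1.32 for CCL20, 1.75 for IL6, 1.53 for IL1B and 0.76 for IL11, against a median of 0.27 and a 95th percentile of 0.72 over all tested genes. These 8 members were above that percentile. IL1A, at 0.44, was below it, and LIF, at 0.10, was at the 5.62 percentile. The ratio of the highest to the lowest sample was 1.91 for the median tested gene, and 13.0 for CXCL8.

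**Figure D4:**
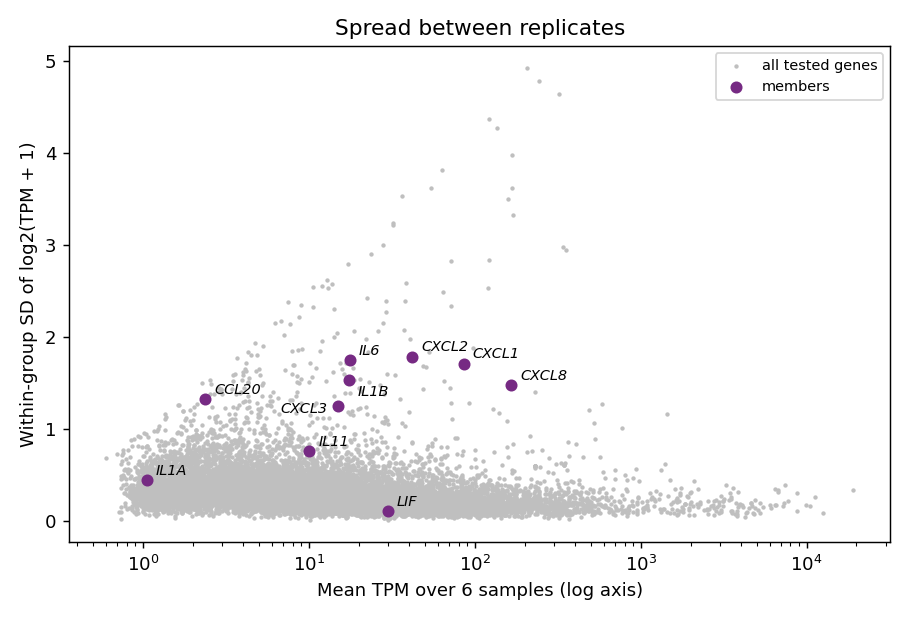
SD within groups of log2(TPM + 1) against mean TPM over the 6 samples (log axis), for all tested genes and the members. CXCL1, CXCL2, CXCL3, CXCL8, CCL20, IL6, IL1B and IL11 lie above the 95th percentile of 0.72, and LIF lies near the bottom at 0.10.

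Other genes were compared with each member by the distance between profiles, the root mean square difference of log2(TPM + 1) after centering each gene on its mean over the 6 samples, over 9809 genes with a mean of at least 5 TPM. The gene closest to CXCL2 was NFKBIZ, an NF-kappaB cofactor (distance 0.249), followed by ZC3H12A, which encodes the mRNA-cleaving Regnase-1 (0.363). NFKBIZ was at 21.7 TPM, 5.40 TPM and 67.6 TPM in TC and at 17.1 TPM, 76.2 TPM and 10.2 TPM in TM, high and low in the samples that were high and low for CXCL2. For IL6 and CXCL1 it was CEBPD, a transcription factor of the acute-phase response (0.287 and 0.465), and for CXCL8 it was CSF2, which encodes GM-CSF (0.391). CSF2 was at 140 TPM, 65.5 TPM and 328 TPM in TC and at 44.8 TPM, 210.5 TPM and 55.9 TPM in TM.

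The gene most like CXCL3 was NFKBIA, the inhibitor of NF-kappaB (distance 0.395), and that most like CCL20 was IFIT1, an interferon-induced gene (0.343). IL1B lay closest to SAA1, an acute-phase protein (0.436). C3, complement component 3, was among the 3 closest genes of 6 members, CXCL1, CXCL2, CXCL8, CCL20, IL6 and IL1B. IL11 lay closest to DUSP1, a phosphatase of MAP kinases (0.132), and LIF to SUGP2 (0.0906). The profiles of IL11 and LIF themselves swing less, by a root mean square of 0.62 and 0.48, than that of CXCL1, at 1.45. For IL1A the closest was CGRRF1 (0.164). These distances rest on 6 samples and were given no test.

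The receptors were sparse. Of 12 receptor and antagonist genes 6 were tested and 0 were called by limma, with 0 at an unadjusted p under 0.05, against 16.2% of all tested genes. Their median log2 difference was 0.17, against -0.14 over all tested genes. After median-of-ratios scaling 1 was higher and 0 lower at that p, against 5.81% higher and 7.63% lower of all tested genes. The median of the receptors was then 0.27, against 0.02. IL6ST, the shared gp130 subunit, had 16.2 ± 8.65 TPM in TC and 10.8 ± 4.49 TPM in TM (adjusted p 0.604 by limma). IL1RAP had 9.34 ± 2.52 TPM and 6.98 ± 0.23 TPM, and LIFR, the LIF receptor, 1.84 ± 0.90 TPM and 1.16 ± 0.24 TPM. IL11RA was at 4.82 TPM to 5.07 TPM in TC and 5.66 TPM to 6.30 TPM in TM, without overlap, with an adjusted p of 0.616 by limma. IL6R and IL1R1 had log2 differences of -0.15 and -0.01. CXCR1 and the scavenger ACKR1 were listed at 0, and CXCR2, CCR6, the decoy IL1R2 and the antagonist IL1RN stayed at or under 0.18 TPM, so the receptors of the abundant chemokines were near 0 in these human-aligned libraries.

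Of the NF-kappaB pathway, 32 of 34 genes were tested and 0 called by limma; 0 were higher and 4 lower in TC at an unadjusted p under 0.05, against 1.93% higher and 14.2% lower of all tested genes. The 4 were the kinase IKBKB (log2 difference -0.84, adjusted p 0.096 by limma), TRAF2 (-0.53), MAP3K14 (-0.70) and IKBKG (-0.41). The median was -0.09 with 13 positive and 19 negative, against -0.14 over all genes. After median-of-ratios scaling it was 0.06 with 18 positive and 14 negative, and 0 were higher and 1 lower at an unadjusted p under 0.05, against 5.81% higher and 7.63% lower of all genes, whose median was then 0.02. Of 12 genes of the JAK and STAT3 pathway 0 were called, with 0 higher and 2 lower at an unadjusted p under 0.05 and a median of -0.15, TYK2 (-0.79, adjusted p 0.0843 by limma) and PIAS3 (-0.65) among them. SOCS1 and STAT3 had differences of -0.57 and -0.35. After the scaling the list had 1 lower, 6 positive and 6 negative and a median of -0.01.

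Of 11 regulators of AU-rich mRNA decay and stability 0 were called by limma, with 0 higher and 2 lower at an unadjusted p under 0.05 and a median of -0.31. Of all tested genes 1.93% were higher and 14.2% lower at that p, with a median of -0.14. ZFP36, which encodes the decay factor tristetraprolin, differed by -0.60 (adjusted p 0.177 by limma), TIA1 by -0.69, KHSRP by -0.38 and ELAVL1 by -0.29. After median-of-ratios scaling 0 were lower at that p, and the median was -0.14. All tested genes then had 5.81% higher and 7.63% lower, with a median of 0.02. Of 11 genes for interleukin-1 processing and release, 9 were tested and 0 called, with 0 higher and 1 lower at an unadjusted p under 0.05. Their median was -0.09, beside the 14.2% lower and median of -0.14 of all tested genes. That one was NLRP1 (-0.75, adjusted p 0.121 by limma), and CAPN1, TMED10 and CASP1 differed by -0.35, -0.22 and -0.31. After the same scaling 1 was lower at that p, and the median was 0.09, with 5 positive and 4 negative. The inflammasome adaptor PYCARD did not exceed 0.17 TPM. Of 33 other cytokines 18 were tested and 0 called, with 1 higher and 1 lower at an unadjusted p under 0.05 and a median of 0.07. The higher one was CCL2, a monocyte attractant (0.98, adjusted p 0.3003 by limma). IL32 and CCL26 differed by 0.55 and 1.06. After the scaling 2 of these cytokines were higher and 0 lower at that p, with a median of 0.24, beside 5.81% higher of all tested genes. The CXC chemokines CXCL5, CXCL6, PPBP and PF4 did not reach the level to be tested.

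In bulk tissue, fewer cells of a type and less RNA per cell cannot be told apart. The hosts were mice and the reads were assigned to the human genome, so the marker sums below are no measure of the amount of host cells. Whether mouse reads are among those counted is not known from the sources used here. A human gene at 0 does not show that a host cell type was absent. The tumor-cell list summed to between 5468 TPM and 7112 TPM in all samples, mostly VIM at 3797 TPM to 5283 TPM. ESR1 and PGR, the hormone receptors that the line is known to lack, stayed at or under 0.22 TPM. The myeloid list (14 genes) summed to 96.5 TPM to 110.2 TPM in TC and 103 TPM to 114 TPM in TM, mostly CD68, with TYROBP, C1QA, C1QB and FCGR3A at 0. The neutrophil list (10 genes) summed to 1.77 TPM to 3.19 TPM in TC and 1.11 TPM to 8.82 TPM in TM, with S100A8, S100A9, MPO and ELANE at 0. The highest neutrophil sum, 8.82 TPM, was in TM replicate 2, and LCN2 alone made up 6.22 TPM of it. CSF3R did not exceed 0.01 TPM in any sample, so that sum rests mostly on a single gene of the list. The chemokines were also high in TM replicate 2. TC replicate 3, the highest sample for CXCL8, summed to 3.03 TPM, against 3.19 TPM in TC replicate 1. A link between this list and the chemokines was not tested.

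The fibroblast list (10 genes) summed to 109 TPM, 165 TPM and 285 TPM in TC and to 655 TPM, 1225 TPM and 158 TPM in TM, and the skeletal muscle list (10 genes) to 3.50 TPM to 5.30 TPM in TC and to 138 TPM, 386 TPM and 1.48 TPM in TM. LIF was at 38.6 TPM to 40.7 TPM in the same 3 TM samples. Endothelial sums were 60.0 TPM to 74.1 TPM in TC and 64.3 TPM to 80.4 TPM in TM, and adipocyte sums 0.40 TPM to 0.94 TPM and 0.60 TPM to 1.35 TPM, with ADIPOQ and LEP at 0. TM replicate 3 stood apart in its table: its annotated and assembled features summed to 994381 TPM rather than 1000000, and 4 of 259 assembled loci were above 0, against 203 to 214 in the other samples. Without that sample the LIF difference was -0.95, with an adjusted p of 0.0775 by limma. The other members moved more, apart from IL1A at 0.49. CXCL8, CXCL1, CXCL3 and CCL20 came to 0.79, 0.13, -0.17 and 0.04. CXCL2, IL6, IL11 and IL1B came to -0.74, -0.04, -0.49 and 0.55. The order of samples and the spread described above include TM replicate 3. The part of the marker sums in the members' levels was not tested.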

How the data were processed

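RNA of 6 samples (3 TC, 3 TM) was sequenced in paired-end mode. According to the study's methods and the submitters' processing notes, SeqPrep and Sickle cleaned the reads, HISAT2 placed them on hg38, StringTie assembled transcripts and RSEM gave abundances; versions and the annotation release are not given in the sources used here. The values deposited by the authors are TPM per gene, so read depth is unknown and no count test was run. The labels do not tie samples to animals, so p-values measure the spread between these samples.

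Groups were taken from the sample labels. Annotated genes at 1 TPM or more in 3 or more samples were tested on log2(TPM + 1), a scale that understates changes of low genes, with limma 3.58.1 (R 4.3.3, trend) and Benjamini-Hochberg adjustment over 13861 genes. The 259 assembled loci were left out. Coordinates come from GENCODE release 29 (96.3% of gene identifiers matched), promoters from the RefSeq table of GRCh38.p14. The fit was tested on simulated data. The alternatives were another pseudocount (0.1), filters, scalings, moderation, a replicate block and leaving out each sample. Named were all members, all tested receptors and, of each other pathway list, the 4 tested genes with the smallest p; markers of other cell types were summed per sample. A gene that this rule names among the other cytokines is not reported here. The members and lists were chosen with earlier results of these data known.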

Additional observations from a re-analysis of the deposited data

How the results depend on the processing

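Of 148 recomputed member differences, 132 kept their direction and side of the threshold, 15 changed sign and 1, LIF with robust moderation, passed (adjusted p 0.0494), making 1 member called there and 0 under every other alternative run. CXCL2 changed sign to 0.12 after quantile normalization and 0.14 after median-of-ratios scaling, and IL11 to 0.16 and 0.13. Leaving out each sample gave ranges of -0.0392 to 1.79 for CXCL1, -0.84 to 1.00 for CXCL2, -0.17 to 1.21 for CXCL3, -0.00539 to 1.40 for CCL20, -0.0385 to 1.69 for IL6, -0.49 to 0.38 for IL11, 0.57 to 2.10 for CXCL8, 0.55 to 2.19 for IL1B and 0.23 to 0.73 for IL1A, and called 0 members and 1 to 17 genes. The genes called, 19 as reported, were 7 with a pseudocount of 0.1, 1 without a filter, 4 after quantile normalization, 6 after median-of-ratios scaling, 12 without the trend, 47 with robust moderation and 1 with the replicate block. Same-numbered samples had correlations of their deviations of 0.21, -0.12 and -0.16, so the numbers were not taken to pair them. The block followed those numbers, so its 0 called members say nothing of a pairing by tumor, and no other pairing was fitted. Of the pairs with unlike numbers TC replicate 3 with TM replicate 2 had the highest, 0.32, and TC replicate 2 with TM replicate 3 had 0.15. IL1A and CCL20 were not in the fit at a mean of at least 5 TPM. Without read counts, depth sets no stated limit, and the 3 samples a region leave intervals as wide as those printed.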

Other observations

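CXCL12, a chemokine often made by stromal cells, and CXCL14 are outside the 10 genes and were picked after their values were seen. CXCL12 was at 0, 0.68 TPM and 1.78 TPM in TC and at 6.07 TPM, 15.0 TPM and 0.03 TPM in TM (log2 difference -1.55, adjusted p 0.458 by limma). CXCL14 was at 1.11 TPM, 2.38 TPM and 6.12 TPM in TC and at 15.3 TPM, 6.52 TPM and 1.64 TPM in TM (log2 difference -0.89, adjusted p 0.586 by limma). Neither passed the test, and the groups overlapped for both.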
